A study of Mus musculus with 6 samples.

Results

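The genes followed here are 8 members of the small leucine-rich proteoglycan family (Dcn, Lum, Ogn, Fmod, Bgn, Prelp, Omd and Aspn) and Islr, a leucine-rich cell-surface gene of mesenchyme. All probe sets whose only gene symbol in the array annotation is one of these 9 were taken, which gave 20 of the 45101 probe sets on the array and 9 of its 18194 uniquely named genes. The group was chosen by measured values, because Dcn and Islr were higher in Ret-deficient kidneys on these same arrays, so the differences between the genotypes are given as descriptions, and no p-value is given for a member. RNA came from whole kidneys of C57BL/6 mouse embryos at embryonic day 12.5, with 3 Ret-deficient and 3 wild-type biological replicates and 1 array for each. Ret encodes the receptor through which GDNF drives the ureteric bud to grow and branch. The labels give neither the Ret allele nor the litters or number of embryos behind a sample, and their source field places the knockout in the pregnant female while the titles place it in the kidney. The titles were followed. Spread between replicates may therefore be partly technical.

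Small leucine-rich proteoglycans are secreted core proteins made of a row of leucine-rich repeats, and several carry chondroitin, dermatan or keratan sulfate chains. They coat collagen fibrils and set their thickness and spacing, and decorin and biglycan also bind TGF-beta and other growth factors. In developing organs they are made by mesenchyme, fibroblasts and the cells of cartilage, tendon and bone. Islr, also called meflin, joins leucine-rich repeats to an immunoglobulin domain and marks undifferentiated mesenchymal cells and fibroblasts.

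Values are MAS5 signals, a brightness per probe set on a linear scale, and cannot be set against each other between probe sets. The sums over marker lists given below add such signals across probe sets. Each sum therefore follows mainly the brightest probe sets of its list, and dimmer markers can go another way. The mean signal after trimming 2% at each end was 2500 on every array. Differences are on the log2(signal + 16) scale, Ret-deficient minus wild-type, with the standard error of the limma fit, and this scale understates the change of dim probe sets. Background was judged by the brightest of 27 bacterial control probe sets on each array, whose signal was 116.8 to 133.4 on the Ret-deficient arrays and 97.2 to 186.9 on the wild-type arrays. Ret itself, by its brighter probe set, read 93.3, 479.8 and 334.1 in Ret-deficient kidneys, against 13315, 11042 and 10193 in wild-type kidneys. Wild-type replicate 1 stood apart in RNA quality, with a ratio of the 3′ to the 5′ control probe set of 10.7 for beta-actin and 4.91 for Gapdh, where the other 5 arrays had 3.88 to 5.21 and 1.86 to 2.31. Because whole kidneys were lysed and every array was scaled to 1 level, a lower signal from fewer cells of a kind cannot be told apart from less RNA per cell.

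Of the 20 probe sets, 12 were bright enough to enter the fit over the whole array and are called tested, those of Dcn (1 of 2), Lum, Bgn (3), Fmod (6) and Islr. The other 8 probe sets, which include all those of Prelp, Ogn, Omd and Aspn, fell in the dimmer part of the array. All 12 tested probe sets had a positive difference, against 48.3% of all 22519 tested probe sets, with a median of 0.61 on the log2 scale, against -0.01. Because 6 of the 12 read the Fmod transcript and 3 read Bgn, they are not 12 separate measurements, and nothing is read from these counts. Over the whole array 0 probe sets passed an adjusted p of 0.05 in limma, with Benjamini-Hochberg adjustment (0%), and 1209, or 5.37%, had an unadjusted p under 0.05. In 2 of the 12, Dcn and Islr, the groups did not overlap and were higher in Ret-deficient kidneys, while 5.17% of all tested probe sets had that order; these are the genes by which the group was chosen. A difference of at least 1 was reached by 4 of the 12, against 0.915% of all tested. These 4 also include Dcn and Islr, and in the other 2, of Lum and Fmod, the groups overlapped, so nothing is read from this count either.

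**Figure D1:**
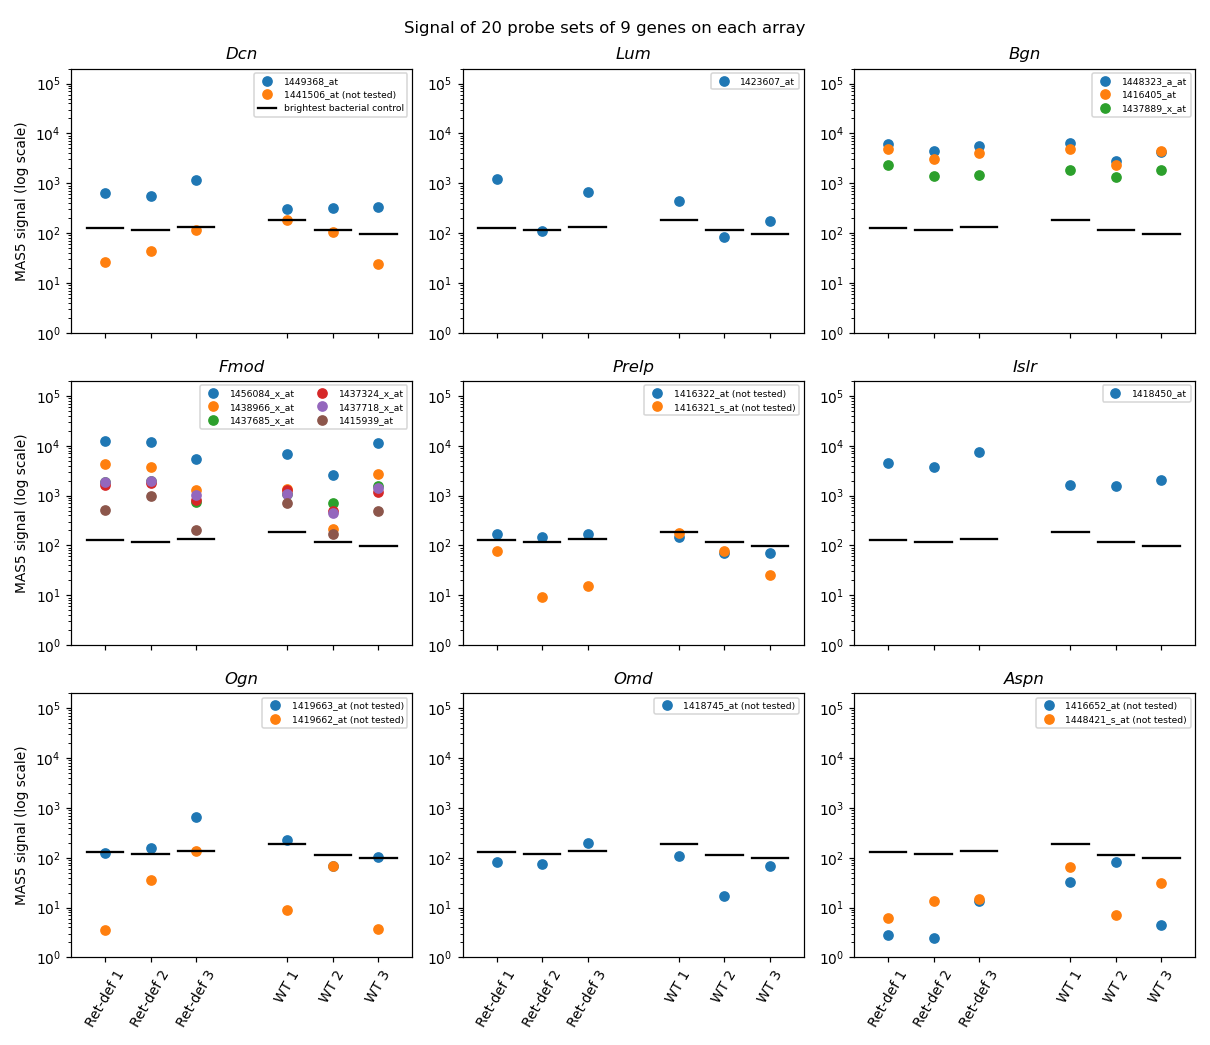
MAS5 signal (log scale) of the 20 probe sets of the 9 genes on each of 3 Ret-deficient (Ret-def) and 3 wild-type (WT) arrays, 1 point per probe set and array, with a black bar at the brightest bacterial control of that array. Dcn 1449368_at and Islr 1418450_at lie higher on every Ret-deficient array than on any wild-type array, Bgn and Fmod lie above the bars in both groups, and Aspn lies below them on all 6 arrays.

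Islr showed a gap between the groups on every array. Its probe set 1418450_at read 4402, 3807 and 7548 in Ret-deficient replicates 1, 2 and 3, against 1618, 1539.7 and 2039 in wild-type replicates 1, 2 and 3. The lowest Ret-deficient array thus lay well over the highest wild-type one, and replicate 3 was the highest of all. The means were 5252 ± 2010 in Ret-deficient kidneys and 1732 ± 269 in wild-type kidneys (SD, n = 3 each), a log2 difference of 1.54 (SE 0.29) or 2.90-fold. The difference was 1.24 when Ret-deficient replicate 3 was left out and 1.74 when replicate 2 was, the extremes over the 6 arrays.

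Dcn, which encodes decorin, a chondroitin or dermatan sulfate proteoglycan of collagen fibrils, followed the same order of Ret-deficient arrays. Its brighter probe set 1449368_at read 652.7, 557.2 and 1142 in Ret-deficient kidneys, against 305.8, 312.3 and 333.2 in wild-type kidneys. The wild-type arrays were nearly equal, and the Ret-deficient arrays were spread, with replicate 3 again the highest and replicate 2 the lowest. The means were 783.9 ± 313.5 in Ret-deficient and 317.1 ± 14.3 in wild-type kidneys (SD, n = 3 each), a log2 difference of 1.20 (SE 0.28) or 2.29-fold, and 0.90 without Ret-deficient replicate 3. Without wild-type replicate 1, the array with the high 3′ to 5′ ratios, the difference was 1.17 for Dcn and 1.49 for Islr. The dimmer Dcn probe set 1441506_at was not above the bacterial control on any array, at 26.6, 43.3 and 115.7 in Ret-deficient kidneys and 180.0, 105.7 and 23.9 in wild-type kidneys, and so does not bear on the gene.

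**Figure D2:**
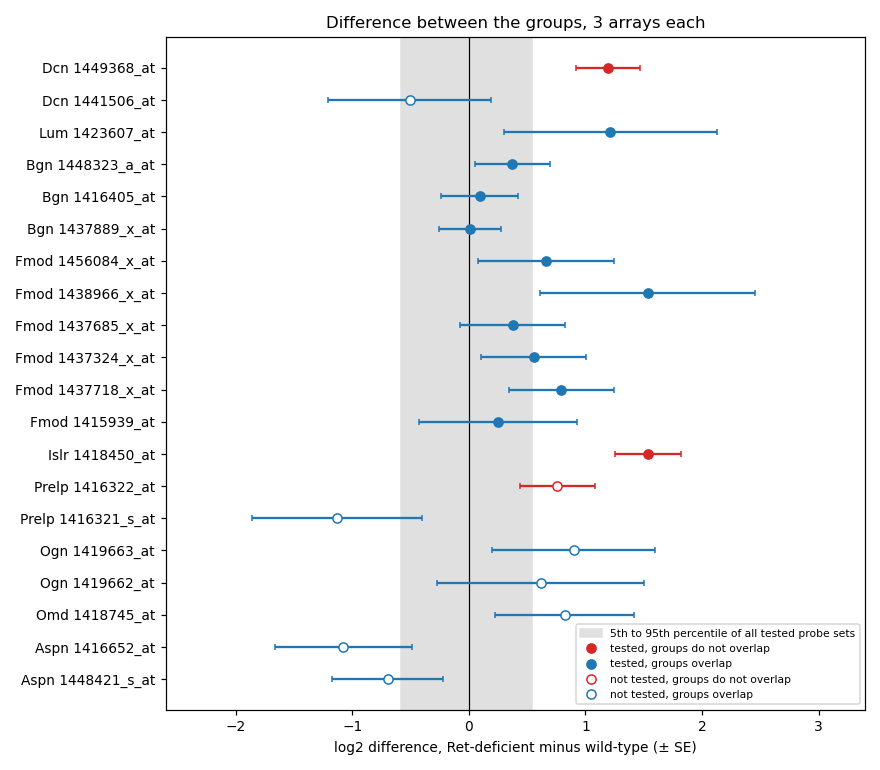
The log2 difference, Ret-deficient minus wild-type, of each of the 20 probe sets (points) with its standard error (bars), 3 arrays per group. Filled points were tested, open points were too dim, red marks groups that do not overlap, and the grey band runs from -0.58 to 0.54, the 5th to 95th percentile of all tested probe sets. Islr (1.54) and Dcn 1449368_at (1.20) lie to the right of the band with short bars, while Lum (1.21) and Fmod 1438966_x_at (1.53) lie as far right with wide standard errors (0.91 and 0.93).

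Lum, the gene of lumican, a keratan sulfate proteoglycan that keeps collagen fibrils thin, varied more between arrays of 1 genotype than between genotypes. It read 1219, 108.3 and 677.0 in Ret-deficient replicates 1, 2 and 3, and 437.1, 84.4 and 171.8 in wild-type replicates 1, 2 and 3. The groups overlapped, and replicate 2 of each genotype lay below its bacterial control (116.8 in the Ret-deficient and 114.7 in the wild-type array). The log2 difference of 1.21 (SE 0.91) was no larger than the spread within groups, which was 1.44 (SD, log2). It was 0.52 when Ret-deficient replicate 1 was left out and 2.18 when replicate 2 was. The signal summed over 5 skeletal muscle markers was 8591, 2255 and 6553 in Ret-deficient kidneys and 14059, 1026 and 3579 in wild-type kidneys, with both tested markers positive in their difference. Its largest part came from Actc1, at 7082, 1107 and 6004 in Ret-deficient and 13072, 463.6 and 3012 in wild-type kidneys. The other tested marker, Tnnt3, had a difference of 0.03 (SE 0.43) and was highest in Ret-deficient replicate 2, at 873.6. Myod1, too dim to be tested, read 245.4, 152.8 and 158.1 in Ret-deficient kidneys, against 27.6, 25.0 and 80.7 in wild-type kidneys. It was the only muscle marker whose groups did not overlap, and was above the control only on the Ret-deficient arrays. Replicate 2 was the lowest array of each genotype for the muscle sum and for Lum, but also for the sums over macrophage markers, renal stroma markers, and fibril proteins and growth factors. The highest array was wild-type replicate 1 for the muscle sum and Ret-deficient replicate 1 for Lum, and the part of muscle cells in the Lum signal was not tested.

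Bgn encodes biglycan, the close relative of decorin, and did not separate the genotypes. Its brightest probe set 1448323_a_at read 6250, 4493 and 5706 in Ret-deficient kidneys, against 6338, 2747 and 4219.7 in wild-type kidneys. Ret-deficient replicate 1 and wild-type replicate 1 were the highest on this probe set, and wild-type replicate 2 was the lowest. The overlap on this probe set came only from wild-type replicate 1, the array with the high 3′ to 5′ ratios. On the other Bgn probe sets wild-type replicate 3 also overlapped the Ret-deficient arrays. The log2 differences of the 3 Bgn probe sets were 0.37 (SE 0.32) for 1448323_a_at, 0.09 (SE 0.33) for 1416405_at and 0.01 (SE 0.27) for 1437889_x_at. When 1 array was left out, the second ranged from -0.24 to 0.29 and the third from -0.23 to 0.16, so these 2 have no settled sign. The first, at 0.37, became 0.07 when wild-type replicate 2 was left out and 0.67 when replicate 1 was.

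Fmod encodes fibromodulin, a keratan sulfate proteoglycan that binds collagen and takes part in fibril assembly, and it had 6 tested probe sets. The brightest, 1456084_x_at, read 12654, 11893 and 5314 in Ret-deficient kidneys, against 6830.0, 2599 and 11338 in wild-type kidneys. Ret-deficient replicates 1 and 2 and wild-type replicate 3 were high, and wild-type replicate 2 was the lowest. The groups overlapped on all 6 Fmod probe sets.

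The size of the Fmod difference depended on the probe set. It was 0.66 (SE 0.58) on 1456084_x_at, 1.53 (SE 0.93) on 1438966_x_at, 0.79 (SE 0.45) on 1437718_x_at, 0.56 (SE 0.45) on 1437324_x_at, 0.38 (SE 0.45) on 1437685_x_at and 0.25 (SE 0.68) on 1415939_at. The widest of these, on 1438966_x_at, came from readings of 4388, 3692 and 1285 in Ret-deficient kidneys, against 1373, 216.0 and 2697 in wild-type kidneys. Single arrays moved these sizes in both directions. Without wild-type replicate 2 all 6 were smaller, at 0.51 for 1438966_x_at, 0.08 for 1456084_x_at, 0.09 for 1437685_x_at and -0.32 for 1415939_at. Without Ret-deficient replicate 3 all 6 were larger, at 2.08, 1.06, 0.83 and 0.83 for the same 4 probe sets, and without wild-type replicate 3 they were 2.29, 1.14, 0.65 and 0.40. Without Ret-deficient replicate 2 the difference of 1415939_at was -0.26. The suffix x_at marks probe sets with probes that can bind other transcripts, and 1415939_at, the 1 without it, had the smallest difference.

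The 3 tested members with a promoter sequence in the RefSeq table (build GRCm38.p6) differ in this contrast, Islr with separate groups and Fmod and Bgn with overlapping ones, and the 250 bases before each annotated start are shown so that they can be compared. Capitals mark matches on either strand to any of 4 motifs. The core box of many regulated promoters was searched as TATAAA. The binding site of the factor NF-Y was searched as CCAAT. The site of the Fos and Jun factors, called AP-1, was searched as TGANTCA. The site of the factor Sp1 was searched as GGGCGG.
Islr, chr9:58158555-58158804, minus strand: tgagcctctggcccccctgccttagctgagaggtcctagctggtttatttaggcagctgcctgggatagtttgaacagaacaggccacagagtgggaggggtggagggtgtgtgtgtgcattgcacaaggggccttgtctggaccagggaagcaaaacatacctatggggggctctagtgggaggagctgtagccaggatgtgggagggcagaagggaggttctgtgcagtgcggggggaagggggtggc
Fmod, chr1:134037004-134037253, plus strand: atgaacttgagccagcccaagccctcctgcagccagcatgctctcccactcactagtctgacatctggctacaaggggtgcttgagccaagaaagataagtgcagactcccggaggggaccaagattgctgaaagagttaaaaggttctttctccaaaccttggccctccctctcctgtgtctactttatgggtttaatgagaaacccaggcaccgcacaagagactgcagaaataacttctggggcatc
Bgn, chrX:73483351-73483600, plus strand: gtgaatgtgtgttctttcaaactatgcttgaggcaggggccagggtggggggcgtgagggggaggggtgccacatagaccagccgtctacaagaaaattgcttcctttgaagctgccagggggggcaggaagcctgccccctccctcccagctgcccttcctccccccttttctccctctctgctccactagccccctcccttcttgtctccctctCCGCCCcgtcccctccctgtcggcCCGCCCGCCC
Islr and Fmod hold none of the 4 motifs in this window, and Bgn holds the Sp1 site 3 times, always as its reverse complement and within 34 bases of the start, and the last 2 overlap. The table held promoters of 7 of the 9 genes, all but Dcn and Lum. The core box was found in 2 of the 7 (Ogn and Aspn, each 2 times), the NF-Y site in 2 (Prelp and Aspn), the AP-1 site in 0 and the Sp1 site in 1. Over all 32851 promoters of the table the shares were 12.4% for the core box, 33.8% for the NF-Y site, 6.75% for the AP-1 site and 32.7% for the Sp1 site. A match describes the letters only.

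Prelp, whose product anchors basement membranes to connective tissue, gave a signal near background. Probe set 1416322_at read 172.7, 146.4 and 172.1 in Ret-deficient kidneys, each above the bacterial control of its array, and 146.2, 69.4 and 69.9 in wild-type kidneys, none of them above it. The groups did not overlap by a narrow margin, with Ret-deficient replicate 2 at 146.4 and wild-type replicate 1 at 146.2. The mean Ret-deficient signal was 1.24-fold the wild-type controls, on the log2 scale. So near to background, no fold between the genotypes is settled by it. The other probe set, 1416321_s_at, was not above the control on any array and read 9.3 to 77.3 in Ret-deficient and 25.9 to 181.6 in wild-type kidneys.

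Ogn, Omd and Aspn lie next to each other on chromosome 13 and encode osteoglycin, osteomodulin and asporin, matrix proteins best known in bone, tendon and cartilage. Ogn 1419663_at read 125.4, 155.5 and 642.8 in Ret-deficient kidneys, against 230.8, 67.6 and 103.2 in wild-type kidneys. It was above the control on 2 arrays of each genotype, and Ret-deficient replicate 3 stood far over the rest. The second Ogn probe set, 1419662_at, was above the control only in Ret-deficient replicate 3, at 135.0 against a control of 133.4. Omd read 82.8, 73.4 and 200.6 in Ret-deficient kidneys, against 108.8, 16.8 and 68.1 in wild-type kidneys, again above the control only in Ret-deficient replicate 3. Both Aspn probe sets were below the control on all 6 arrays, at 2.5 to 14.9 in Ret-deficient and 4.5 to 81.2 in wild-type kidneys, so no Aspn signal was detectable and no fold is given.

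The members did not vary together as a single group. Ret-deficient replicate 3 was the highest array for Dcn, Islr, Ogn and Omd, yet it was the lowest Ret-deficient array on all 6 Fmod probe sets. Against the wild-type mean, Islr stood at 1.35, 1.14 and 2.12 on the log2 scale in Ret-deficient replicates 1, 2 and 3, and Dcn at 1.01, 0.78 and 1.80. Lum stood at 2.59, -0.72 and 1.76, and Fmod 1456084_x_at at 1.11, 1.02 and -0.14. Dcn and Islr had a Pearson correlation of 0.99 over the 6 arrays, a description that holds both genotypes and the value by which both were chosen. Dcn and its neighbour on chromosome 10, Lum, had 0.56. Dcn with Fmod lay between -0.20 and 0.34 over the 6 Fmod probe sets.

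**Figure D3:**
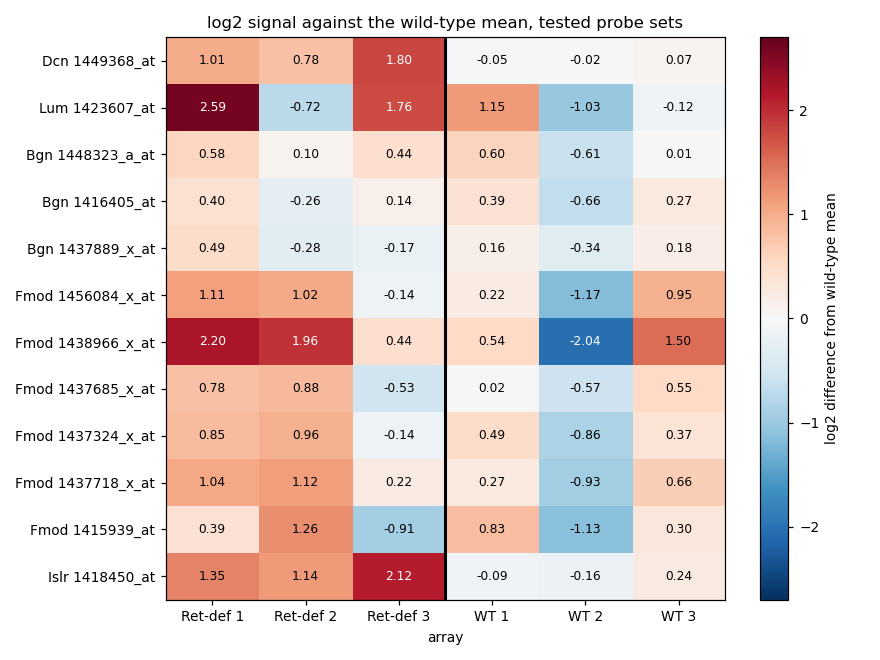
The log2 signal of the 12 tested probe sets on each array minus the mean of the 3 wild-type arrays, as colour and number, with Ret-deficient arrays (Ret-def) left of the black line and wild-type arrays (WT) right of it. Dcn and Islr stand at 0.78 or more in all 3 Ret-deficient columns and near 0 in the wild-type columns, whereas Lum, Bgn and Fmod differ among the wild-type arrays, of which replicate 2 is the lowest for each of their probe sets.

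Markers of other cells also differed between arrays, and their part in the values above was not tested. The signal summed over 8 macrophage markers was 13825, 7192 and 29356 in the Ret-deficient kidneys, in replicate order, and 10153, 7723 and 11576 in the wild-type kidneys, with all 6 tested markers positive in their difference. Ret-deficient replicate 3 was the highest array for this sum and for Dcn and Islr, and replicate 2 was the lowest Ret-deficient array for all 3. The macrophage sum overlapped between the genotypes. In Ret-deficient replicate 2 it was below every wild-type array, whereas Dcn and Islr were above every wild-type array there. The sum over 9 ureteric epithelium markers was 6529, 55711 and 45446 in Ret-deficient kidneys, against 57215, 71029 and 70997 in wild-type kidneys, and 8 of 9 tested markers had a negative difference. This sum was lowest in Ret-deficient replicate 1, where the median tested marker stood at -3.09 against the wild-type mean on the log2 scale. Gata3 (1409), Krt18 (2140) and Wnt11 (756.8) still gave signal there. On that array Dcn and Islr were between the other 2 Ret-deficient arrays. The sum over 5 neural crest and glia markers was 6238, 3539 and 4909 in Ret-deficient kidneys, against 10154, 8323 and 7557 in wild-type kidneys, so the groups did not overlap, and 3 of 4 tested markers were negative, with a median of -0.73. Sox10, the transcription factor gene of neural crest glia, read 2269, 1100 and 1644 in Ret-deficient kidneys, against 6971, 3770 and 3362 in wild-type kidneys, a log2 difference of -1.47 (SE 0.37). The gap in the neural crest sum rests mainly on Sox10. Groups overlapped for the other tested markers of that list, Ngfr (-0.40, SE 0.26), Tubb3 (-1.06, SE 0.40) and Stmn2 (0.01, SE 0.46). The sums over endothelial, nephron progenitor, mesothelial, erythroid and gonad and adrenal markers overlapped between the genotypes. Single markers of these lists did differ. Gdnf, a nephron progenitor marker, read 1772, 1698 and 1800 in Ret-deficient kidneys, against 2777, 4442 and 3317 in wild-type kidneys, a log2 difference of -0.97 (SE 0.21). It was the only tested marker of these lists whose groups did not overlap. Lrrn4 and Cyp11a1, too dim to be tested, were also lower without overlap.

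Of 9 renal stroma markers 7 were positive, with a summed signal of 153645, 145076 and 157391 in Ret-deficient kidneys, against 138248, 118304 and 125026 in wild-type kidneys, and these groups did not overlap. The stromal transcription factor gene Foxd1 read 11833, 7815 and 18372 in Ret-deficient kidneys, against 4633, 7292 and 7315 in wild-type kidneys, and had its highest value in replicate 3, as Dcn and Islr did. Pdgfra, a receptor gene of mesenchyme, had a difference of -0.02 (SE 0.18). Only 2 of the 9, Foxd1 and Meis2 (0.14, SE 0.15), had groups that did not overlap, an order that 5.17% of all tested probe sets had. The sum includes the bright collagens Col1a1 and Col3a1, whose groups overlapped and which are also counted among the fibril proteins.

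Smooth muscle and cartilage markers moved between arrays of 1 genotype. The sum of 6 smooth muscle markers was 42757, 13634 and 8961 in Ret-deficient kidneys and 42180, 9971 and 26581 in wild-type kidneys, and 1 of 4 tested markers was positive. Its 2 highest arrays were also the 2 highest for Bgn 1448323_a_at, but the other arrays did not follow the same order. Ret-deficient replicate 3 was the lowest array for the smooth muscle sum, yet its Bgn signal of 5706 was above the 4219.7 of wild-type replicate 3. The sum of 6 cartilage and tendon markers was 55133, 45312 and 31703 in Ret-deficient kidneys and 32779, 36075 and 40859 in wild-type kidneys, and Ret-deficient replicates 1 and 2, its highest arrays, were the highest for Fmod 1456084_x_at. Wild-type replicate 2 was the lowest array for that Fmod probe set but not for this sum. Tnmd, a defining gene of tendon, was not above the control on any array, and all 3 tested markers of this list were positive. Scx, the tested marker with the largest difference (0.89, SE 0.34), was above the control on all 6 arrays. It read 993.9, 1439 and 1314 in Ret-deficient kidneys and 404.9, 999.5 and 704.0 in wild-type kidneys, and the groups overlapped.

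The relatives and chromosomal neighbours of the members were mostly too dim to read. Of 11 relatives, 10 of them further leucine-rich matrix genes and 1 the paralogue Islr2, 9 had a probe set and 1, Chadl, was tested, with a difference of 0.18 (SE 0.17). Dcn and Lum lie beside Kera, the gene of keratocan, which was not above the control on any array. Epyc, the gene of epiphycan and a further member of that cluster, was named after its values were seen: it read 94.0, 49.1 and 544.5 in Ret-deficient kidneys, against 17.8, 37.1 and 3.2 in wild-type kidneys, and only Ret-deficient replicate 3 lay above its control. Ecm2, next to Aspn, was not above the control on any array either. Islr lies between Stra6 and its paralogue Islr2 on chromosome 9, and Islr2, a gene of neurons, read 57.7, 88.6 and 166.5 in Ret-deficient kidneys and 139.3, 74.1 and 52.3 in wild-type kidneys. Islr2 overlapped between the groups and was above the control on 1 of 6 arrays.

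Among 19534 tested probe sets of other named genes, those whose pattern over the 6 arrays was most like that of Dcn were Zeb2 (Pearson r 0.99), Sspn (0.99), Gsn (0.99), Fzd1 (0.98) and Nfia (0.98). Those most like Islr were Ago4 (0.99), Sspn (0.99), Snx16 (0.99), Zeb2 (0.99) and Tfpi (0.99). Zeb2, which encodes a repressor of epithelial genes, and Sspn, which encodes sarcospan of the dystrophin complex, were thus in both sets. Sspn read 1523, 1574 and 2301 in Ret-deficient kidneys, against 932.6, 975.5 and 1096 in wild-type kidneys. With so many probe sets and 6 arrays, high values of r occur in any case, and they describe only which log2 signals vary alike here.

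Most genes whose products bind the proteoglycans had a positive difference, while most of their groups overlapped. Of 20 fibril proteins and growth factors, 18 were tested, 15 were positive and 3 negative, with a median of 0.46 against -0.01 over all tested probe sets, and 3 had groups that did not overlap, all higher in Ret-deficient kidneys, an order that 5.17% of all tested probe sets had. Col12a1, a fibril-associated collagen, read 2277, 834.9 and 1601 in Ret-deficient kidneys, against 282.4, 525.6 and 805.7 in wild-type kidneys, a log2 difference of 1.52 (SE 0.48). Col6a2, a chain of the beaded-filament collagen that biglycan and decorin bind, differed by 0.89 (SE 0.38). Col1a2, a chain of the collagen on which decorin sits, read 26520.2 ± 5775 in Ret-deficient and 17139 ± 2133.7 in wild-type kidneys (SD, n = 3 each), a difference of 0.61 (SE 0.22). The growth factor genes Tgfb1, Bmp4 and Bmp7 were the 3 negative ones, at -0.54 (SE 0.37), -0.28 (SE 0.21) and -0.41 (SE 0.30). Collagens are matrix genes of the same mesenchyme and are not independent of the members.

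Genes that build the sugar chains showed smaller differences. Of 30 such genes 24 were tested, 16 were positive and 8 negative, with a median of 0.16, and the groups did not overlap in 6, of which 4 were higher and 2 lower; over all tested probe sets 10.7% had groups that did not overlap. B3gnt7, a glycosyltransferase of keratan sulfate, read 249.6, 344.3 and 426.8 in Ret-deficient kidneys, against 603.4, 464.9 and 865.8 in wild-type kidneys, a difference of -0.88 (SE 0.29). Chpf2, which takes part in making chondroitin chains, differed by 0.79 (SE 0.30), and Chst2, a sulfotransferase, by 0.62 (SE 0.19).

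Among 11 proteases that cut propeptides or core proteins, 6 were tested, 4 were positive, and the median was 0.10. Bmp1, the procollagen C-proteinase that also trims the biglycan and osteoglycin precursors, was the 1 whose groups did not overlap, at 2875, 2344 and 3009 in Ret-deficient kidneys, against 1768, 2163 and 1686 in wild-type kidneys (log2 difference 0.55, SE 0.19). Mmp2, a gelatinase, had a difference of 0.19 (SE 0.17), and Pcolce, the enhancer of Bmp1, 0.06 (SE 0.19). Of 9 receptors that decorin, biglycan or lumican can engage, 8 were tested, 4 were positive and 4 negative, with a median of 0.01 and 0 with groups that did not overlap. Egfr, which decorin binds, had the largest difference of the receptors, 1.71 (SE 0.71), with 780.7, 221.4 and 2035 in Ret-deficient kidneys and 200.1, 190.8 and 232.6 in wild-type kidneys. Ret-deficient replicate 2 lay within the wild-type range. The Kdr gene of the VEGF receptor differed by -0.59 (SE 0.41). No gene of these lists passed an adjusted p of 0.05 in limma.

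**Figure D4:**
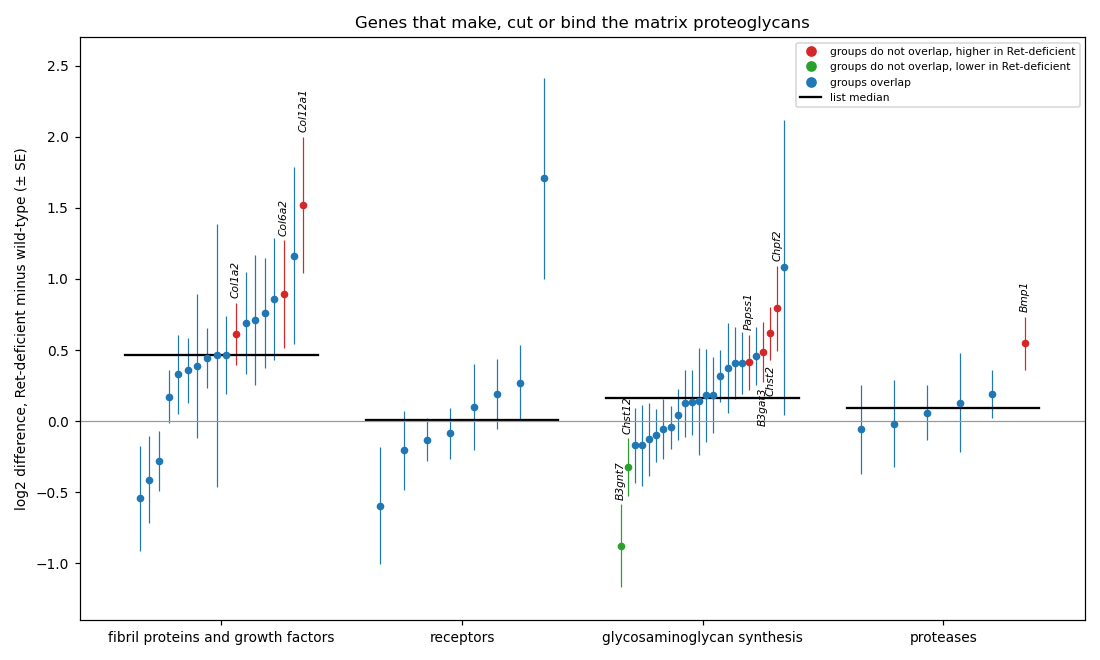
The log2 difference, Ret-deficient minus wild-type, of the tested genes of 4 lists (points, 1 per gene) with its standard error (bars) and the list median (black line), 3 arrays per group. Red and green mark genes whose groups do not overlap. The fibril and growth factor list has the highest median, 0.46, and the receptors the lowest, 0.01.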

How the data were processed

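RNA of 6 whole-kidney samples was measured on Affymetrix mouse whole-genome arrays. Per the submitters' processing notes MAS5 made the deposited signal intensities. Its version and scaling target are not given in the sources read, and no detection calls were used. The table held linear intensities above 0, and the authors' values had been brought to a common trimmed mean. Per the labels' protocols, RNA was labelled by the standard Affymetrix method, while the design text names an amplification kit. The 64 control probe sets were left out. Tests covered the brighter probe sets, those whose mean log2(signal + 16) reached the median over all probe sets, 22519 in all. No further scaling was applied because array medians differed by 0.42 on the log2 scale, under a limit of 0.5. The groups were fitted in R 4.3.3 with limma 3.58.1 (lmFit, eBayes, no covariates, Benjamini-Hochberg adjustment). Probe sets under the limit have their values from the same fit without the filter. The fit was tested on simulated data.

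Symbols came from the array annotation, updated by gene ID with RefSeq names for 99.42% of the 34958 probe sets with 1 symbol; 932 had several and 9211 none. A gene of a list was represented by its brightest probe set. Named were all members; of each list at most 3 genes with the largest difference among those whose groups did not overlap, or the 2 largest; and the 5 genes most correlated with Dcn and Islr. Other named genes, such as Foxd1, Pdgfra, Sox10, Gdnf, Lrrn4, Cyp11a1, Actc1, Tnnt3, Epyc, Tgfb1, Bmp4, Bmp7 and Pcolce, were chosen after their values were seen. So were Scx, Myod1, Ngfr, Tubb3, Stmn2, Meis2, Col1a1, Col3a1, Gata3, Krt18 and Wnt11. Promoter motifs were chosen late too. The members and lists were chosen with earlier results of these data known. Alternatives were a pseudocount of 1 or 64, no filter or the brightest 30%, quantile normalization, median centring, an intensity trend, array quality weights, a replicate block, an adjusted p of 0.1, and each array left out. With 3 arrays per group an exact permutation p cannot be under 0.1, and precision is limited by this number.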

Additional observations from a re-analysis of the deposited data

How the results depend on the processing

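In limma the count of 0 probe sets past the threshold over the whole array became 1, in each case Ret, with median centring and when the variance followed an intensity trend, and ranged from 0 to 1 with 1 array left out (1 without Ret-deficient replicate 1). Member probe sets whose groups do not overlap numbered 2, and 1 among the brightest 30%, where Dcn was not tested. They numbered 2 to 7 with 1 array left out, the 7 without Ret-deficient replicate 3, where 28.6% of all tested probe sets did not overlap against 10.7% with all arrays. Without the filter 3 did not overlap. Same-numbered arrays of the 2 genotypes had correlations of deviations of 0.03, -0.04 and -0.12. These values show no pairing by number over the whole array, but with so few arrays and the litters not given they cannot exclude one. With the replicate block the limma count of probe sets past the threshold was 0, and 1141 had an unadjusted p under 0.05, against 1209. The difference stayed positive under every alternative for Dcn 1449368_at (0.90 to 1.40), Islr (1.24 to 1.74) and Lum (0.52 to 2.18), where Dcn and Lum were tested. With 1 array left out it ranged from -0.24 to 0.29 for Bgn 1416405_at, from -0.23 to 0.16 for Bgn 1437889_x_at and from -0.32 to 0.83 for Fmod 1415939_at, the 3 tested probe sets that changed sign. Array quality weights moved all 6 Fmod and all 3 Bgn probe sets up by over 1.5 times, Fmod to between 0.81 and 2.80 (1438966_x_at) and Bgn to between 0.22 and 0.75 (1448323_a_at), and gave 2533 probe sets with an unadjusted p under 0.05, against 1209. Without Ret-deficient replicate 3 that count was 2140. Median centring moved the median of all tested probe sets to 0.10, with Dcn and Islr then at 1.31 and 1.65.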
